A study of Mus musculus with 12 samples.

Results

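The genes described here are 9 mouse genes that act in or respond to interferon signalling: Ifitm1, Ifitm2, Ifitm3, Bst2, Irf1, Irf3, Isg20, Ifnar1 and Ifngr1. They were taken as every probe set whose single annotated symbol was one of these names, which gave 13 probe sets (12 of array A, 1 of array B), where the arrays hold 22690 and 22575 probe sets and 18194 named genes in all. The 9 genes were chosen from the measured differences between differentiated and undifferentiated cells. Their differences and calls are therefore a description, and nothing is supported with them. The RNA came from R1, a mouse embryonic stem cell line, and was hybridised to a pair of Affymetrix arrays, MOE430A, called array A here, and MOE430B, called array B. In 1 group, 3 RNAs (D1 to D3) came from R1 cells labelled differentiated, which the study had form embryoid bodies, floating clumps whose cells start to take on the fates of an early embryo. In the other, 3 RNAs (U1 to U3) came from R1 cells labelled undifferentiated, with an estimated purity of 95%. The labels name no genetic change or added agent in either group. Both carry the same culture text, D-MEM with 10% serum in bacterial dishes for 5 days at 5% CO2, so how the cultures differed rests on the group names. R1 is 1 cell line. Whether the 3 RNAs of each kind were grown as separate cultures is not stated, and p-values cover only the spread among these RNAs, part or all of which can be technical.

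Interferons are secreted proteins that bind cell surface receptors and, through JAK kinases and STAT factors, switch on a large set of antiviral genes. Type I interferons bind a receptor that includes Ifnar1, and interferon gamma binds one that includes Ifngr1. Interferon regulatory factors such as Irf1 and Irf3 bind DNA elements called interferon-stimulated response elements (ISRE), and gamma-activated sites (GAS) are elements of genes that respond to interferon gamma. Ifitm1, Ifitm2 and Ifitm3 encode small membrane proteins that hinder the entry of enveloped viruses. They are also known from early mouse germ cells, where Ifitm3 is called fragilis. Pluripotent cells are known for a weak response to interferon and for making antiviral proteins without it.

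The promoters of 5 members are shown because these members differ in which of the elements they carry. The sequences are RefSeq windows of build GRCm38.p6, running from 250 bases before to 50 bases after the annotated start, 5′ to 3′ on the gene's strand. Capitals mark matches to the ISRE core, searched as GAAANNGAA, and to GAS, searched as TTCNNNGAA, on both strands, and a run of capitals can hold overlapping matches. The windows are chr7:140967826-140968125 (plus strand) for Ifitm1, chr7:140955912-140956211 (minus) for Ifitm2, chr7:141010695-141010994 (minus) for Ifitm3, chr8:71537423-71537722 (minus) for Bst2 and chr11:53769764-53770063 (plus) for Irf1.
Ifitm1: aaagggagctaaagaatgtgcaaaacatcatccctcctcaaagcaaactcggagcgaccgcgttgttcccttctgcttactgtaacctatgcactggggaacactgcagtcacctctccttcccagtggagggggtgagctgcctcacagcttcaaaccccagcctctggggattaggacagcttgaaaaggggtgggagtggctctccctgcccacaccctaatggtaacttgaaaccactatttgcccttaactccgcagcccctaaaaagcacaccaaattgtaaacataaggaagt
Ifitm2: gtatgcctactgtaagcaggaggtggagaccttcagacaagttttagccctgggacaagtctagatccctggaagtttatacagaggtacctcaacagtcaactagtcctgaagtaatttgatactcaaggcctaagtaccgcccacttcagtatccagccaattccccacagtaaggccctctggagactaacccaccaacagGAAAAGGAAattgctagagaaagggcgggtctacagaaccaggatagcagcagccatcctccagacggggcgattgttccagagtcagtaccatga
Ifitm3: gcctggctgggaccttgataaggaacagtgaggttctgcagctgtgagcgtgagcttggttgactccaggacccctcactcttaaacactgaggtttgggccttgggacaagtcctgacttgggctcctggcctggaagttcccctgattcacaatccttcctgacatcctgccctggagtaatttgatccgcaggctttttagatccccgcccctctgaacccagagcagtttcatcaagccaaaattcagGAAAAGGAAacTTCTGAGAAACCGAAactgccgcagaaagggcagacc
Bst2: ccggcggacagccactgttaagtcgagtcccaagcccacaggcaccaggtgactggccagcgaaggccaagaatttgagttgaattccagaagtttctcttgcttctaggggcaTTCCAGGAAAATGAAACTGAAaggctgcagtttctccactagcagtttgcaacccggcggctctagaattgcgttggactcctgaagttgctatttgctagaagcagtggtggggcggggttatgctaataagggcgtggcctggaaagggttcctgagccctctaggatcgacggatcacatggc
Irf1: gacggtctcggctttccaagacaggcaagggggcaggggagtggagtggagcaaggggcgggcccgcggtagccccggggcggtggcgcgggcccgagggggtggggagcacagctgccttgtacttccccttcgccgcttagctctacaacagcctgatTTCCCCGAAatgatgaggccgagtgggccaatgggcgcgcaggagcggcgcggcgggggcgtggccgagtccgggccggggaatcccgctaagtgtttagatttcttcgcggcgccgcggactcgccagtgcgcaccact

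In the Ifitm3 window 2 ISRE core matches, GAAAAGGAA and GAAACCGAA, lay just after the start, at bases 3 to 11 and 20 to 28, with a GAS match, TTCTGAGAA, at bases 14 to 22 that shares letters with the later one. The Ifitm2 window held the letters GAAAAGGAA once, 46 to 38 bases before its start. The Ifitm1 window held neither motif. In Bst2 a GAS match 136 to 128 bases before the start ran into 2 ISRE core matches, which overlap each other. Irf1 has 2 annotated windows, and the printed one held a GAS match 90 to 82 bases before the start. In all, 3 of the 9 genes had an ISRE core in a window (Ifitm2, Ifitm3 and Bst2) and 5 had a GAS match (Ifitm3, Bst2, Irf1, Isg20 and Ifnar1). The same letters occurred in 8.56% and 8.30% of all 32851 promoter windows. These are shares of windows, whereas the member counts are of genes, of which Irf1 has 2 windows and Isg20 has 3. A match is a description of the letters and not of binding.

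Values below are log2 of the signal after each array was scaled to the same trimmed mean of 500, with signals under 32 set to that floor (log2 of 5.00). A difference is differentiated minus undifferentiated on this scale. Its SE and adjusted p come from limma, with Benjamini-Hochberg adjustment over all tested probe sets of the array and a threshold of 0.05. The 95% intervals are for each probe set alone and carry no such adjustment, so they need not match the adjusted p. Of the 13 probe sets, 12 passed the filter on dim signals (mean log2 signal of at least 6), namely 11 of array A and 1 of array B, while 1 Irf3 probe set did not. In these bulk RNAs, fewer cells making a transcript and less transcript per cell cannot be told apart.

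Among the array A hybridisations D1 stood apart. Its median correlation with the rest was 0.883, where the other arrays had 0.913 to 0.923, and its log2 ratio of 3′ to 5′ actin signal, a sign of RNA integrity, was 0.70 against 0.13 to 0.31 elsewhere. D1 is also the low RNA in Ifitm1 described below, and the part of RNA quality in that value was not tested. Ifitm3 without D1 differed by -1.32 and passed (limma adjusted p = 0.00127). On array B it was U2 that stood apart in correlation (0.705, the others 0.815 to 0.855). The actin ratio on array B was highest in D1 (0.68) and U1 (0.55), against 0.01 to 0.32 in the other RNAs.

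Of the 11 member probe sets tested on array A, 1 passed the threshold, that of Ifitm3, which was lower in the differentiated RNAs. Over the array 2.87% of the 18025 tested probe sets passed in either direction and 1.56% passed as lower. On array B 0 of 1 member probe sets passed, with an unadjusted limma p of 0.876, where 0.0197% of all did. In 5 of the 11, all differentiated arrays lay below all undifferentiated arrays, against 10.1% of the tested probe sets. With 1 probe set per gene, 1 of the 9 genes passed, against 2.08% of all 16461 genes, and 8 of the 9 differences were below 0, with a median of -0.47 against 0.01 over all genes. Because these differences chose the members, nothing is read from these shares.

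**Figure D1:**
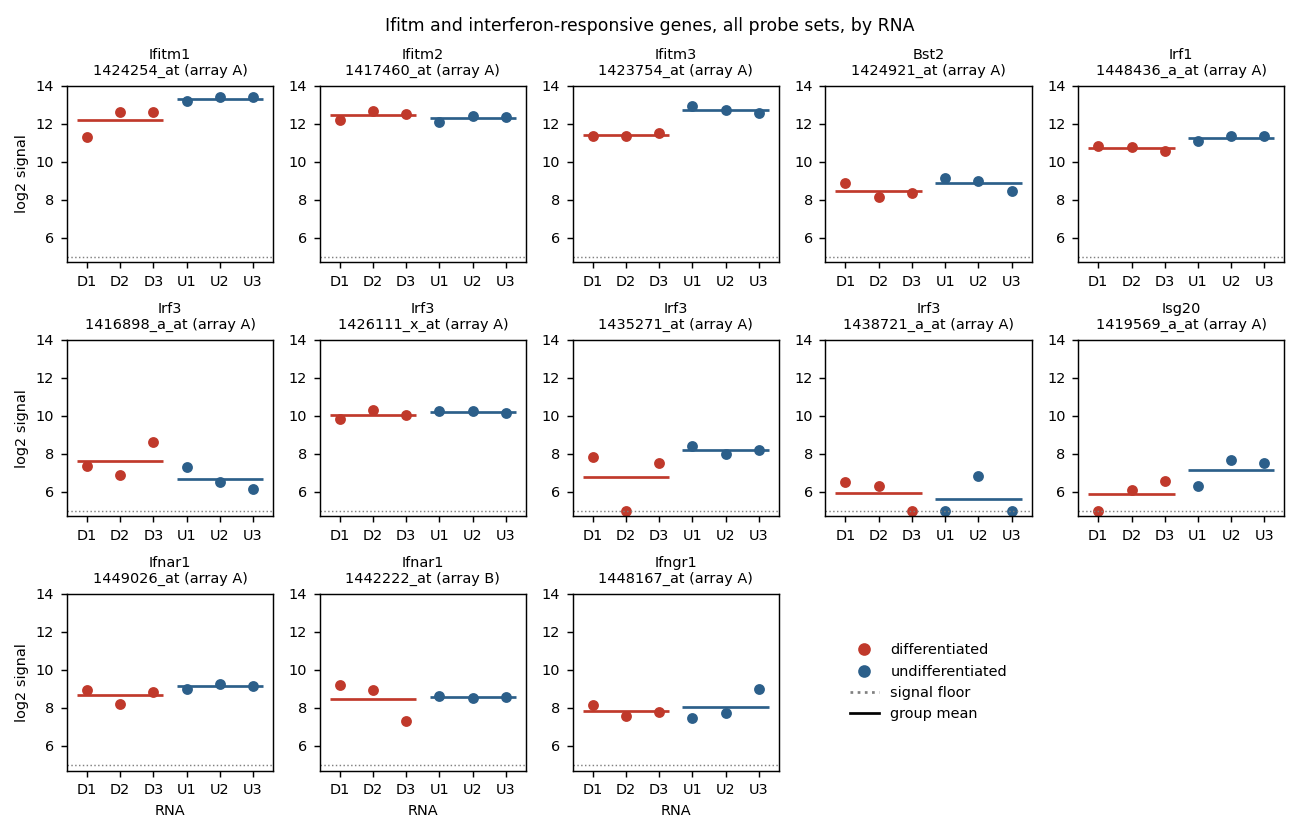
The log2 signal of each of the 13 member probe sets is plotted for the 3 differentiated (red) and 3 undifferentiated (blue) RNAs, with a line at each group's mean and a dotted line at the floor. Ifitm3 has a mean of 12.74 in the undifferentiated and 11.40 in the differentiated RNAs with no overlap, while the groups of Ifitm2 overlap.

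Ifitm3 (probe set 1423754_at) is a family member whose protein sits in endosomes and restricts influenza virus. Its log2 signal was 11.36, 11.34 and 11.51 in D1, D2 and D3, and 12.93, 12.72 and 12.58 in U1, U2 and U3. The differentiated values were all low and close together, the undifferentiated values were all high, and the groups did not overlap, with 1.07 between the nearest pair. On the scaled linear signal these are 2589 to 2916 against 6126 to 7814. The means were 11.40 ± 0.09 (SD, n = 3) and 12.74 ± 0.18 (SD, n = 3). Ifitm3 fell by 1.34 ± 0.13 (SE) on the log2 scale in the differentiated RNAs, a 2.53-fold lower signal, with a 95% interval of the difference from -1.63 to -1.05 and a limma adjusted p of 0.000569. The call was lost when limma's variances were shrunk without an intensity trend, at an adjusted p of 0.0541.

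Ifitm1 (1424254_at) encodes a family member that, in human cells, is found mainly at the cell surface. Its log2 signal was 11.29, 12.64 and 12.62 in D1, D2 and D3, and 13.20, 13.38 and 13.39 in U1, U2 and U3. D1 lay far below D2 and D3, which were close together, and all 3 lay below the undifferentiated values, which were close together. The means were 12.18 ± 0.77 (SD, n = 3) and 13.32 ± 0.11 (SD, n = 3). The difference was -1.14 ± 0.30 (SE), with a 95% interval from -1.79 to -0.49, and it did not pass (limma adjusted p = 0.0706). The SD pooled within groups was 0.55, against a median of 0.18 over the 500 probe sets nearest in level. Without D1 the difference was smaller, -0.69, and passed (limma adjusted p = 0.0109).

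Ifitm2 (1417460_at), whose protein lies in endosomes in human cells, had log2 signals of 12.20, 12.65 and 12.53 in D1, D2 and D3, and 12.11, 12.42 and 12.34 in U1, U2 and U3. High and low values were mixed between the groups, which overlapped. The difference was 0.17 ± 0.15 (SE), and its 95% interval ran from -0.16 to 0.49, which leaves room for a small difference in either direction. Since the members were chosen from this difference, the intervals of Ifitm2, Ifitm3 and Ifitm1 are not set against each other. No test of the difference between genes was run. The 3 genes are close paralogs, and whether each probe set reads only its own transcript was not tested.

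**Figure D2:**
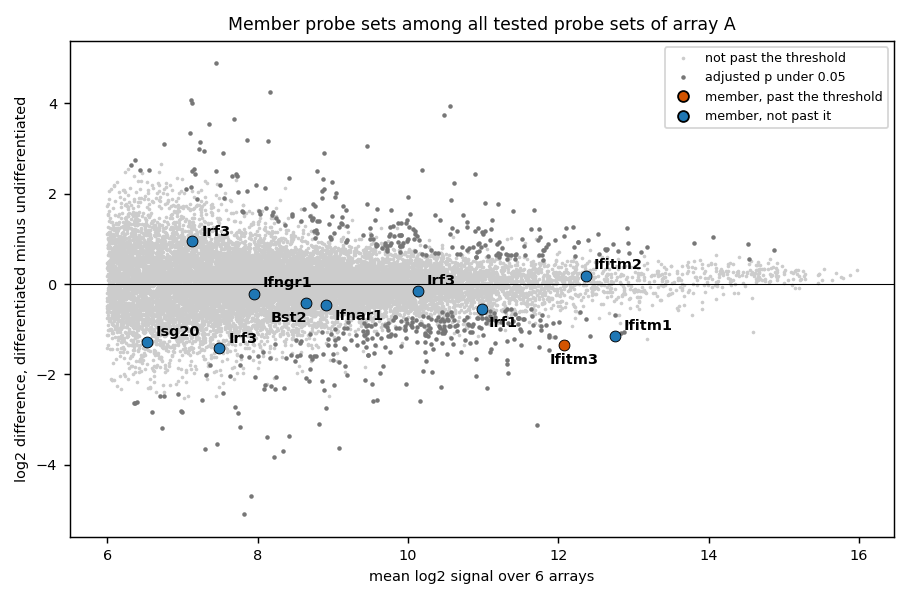
Each point is 1 of the 18025 tested probe sets of array A, with its mean log2 signal over 6 arrays on the x axis and its log2 difference (differentiated minus undifferentiated) on the y axis. The 11 member probe sets are large and named, with Ifitm3 (orange) at -1.34 the only one past the threshold.

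Markers of the cell types these RNAs could hold were summed beside the Ifitm genes. The summed scaled signal of 8 pluripotency markers was 20563 to 43940 in the differentiated RNAs, lowest in D1 as for Ifitm1, and 52959 to 60861 in the undifferentiated RNAs. Such a linear sum is weighted to the brightest marker, Dppa5a, with mean log2 signals of 14.07 (differentiated) and 15.12 (undifferentiated). The log2 differences of the 8 ran from -1.18 for Zfp42 to -0.03 for Sox2. None of the 8 passed the test (3 were lower at an unadjusted p under 0.05), and Pou5f1 stayed bright in both (11.88 ± 0.20 and 12.15 ± 0.04, SD, n = 3). Of 7 endoderm markers tested, 6 rose, among them Ttr by 4.24, Apoa1 by 3.15, Foxa2 by 2.26 and Gata6 by 1.51 on the log2 scale. Afp, the other gene of this list, was at the floor on 4 of 6 arrays of array A and was left out as dim. The sum of the 6 fibroblast markers tested on array A was 1123 to 1794 in the differentiated and 3483 to 3765 in the undifferentiated RNAs. In the undifferentiated RNAs this sum is weighted to Col1a2 and S100a4, with mean log2 signals of 10.25 and 10.13. With Dcn, read on array B, 7 were tested, and 2 of the 7 fell, S100a4 with a difference of -3.83 and Col1a2 with -1.57. Of the other 5, 2 had differences above 0, Lum with 0.84 ± 0.56 (SE) and Dcn with 0.74 ± 0.49 (SE), and neither passed. On array A, Postn was at the floor on 4 of 6 arrays and the Dcn probe set there on 3, and both were left out as dim. The sum of the 8 blood and macrophage markers tested on array A overlapped between groups, 2421 to 3457 against 2784 to 3620. With 1 more on array B, 0 of 9 passed or had an unadjusted p under 0.05, and Itgam was at the floor on 4 of 6 arrays. Fibroblasts and blood cells also express Ifitm genes, and the part of these cell types in the Ifitm values was not tested.

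The rest of the family was measured by 4 more probe sets named here as a complete list, and none passed, also at an unadjusted p under 0.05 (limma). Ifitm7 on array B had log2 signals of 9.65, 9.88 and 9.55 in D1, D2 and D3, and 9.94, 10.55 and 10.20 in U1, U2 and U3. All differentiated values lay below the undifferentiated ones, with a difference of -0.54 ± 0.29 (SE). Ifitm5, known from bone-forming cells, differed by -0.71 ± 0.74 (SE), Ifitm6 by -0.79 ± 0.74 (SE) and Ifitm10 by 0.28 ± 0.68 (SE). Each of these SE is about as large as its difference or larger.

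In the annotated gene order of mouse chromosome 7, Ifitm5, Ifitm2, Ifitm1, Ifitm3 and Ifitm6 follow one another. Going outward past Ifitm5 come Pgghg, with a difference of 0.43 ± 0.32 (SE), and Nlrp6, with 0.09 ± 0.31 (SE). Past Ifitm6 come B4galnt4, Pkp3, Sigirr, Ano9 and Ptdss2. The differences were -0.18 ± 0.27 (SE) for B4galnt4, 0.09 ± 0.36 (SE) for Pkp3 and -0.61 ± 0.22 (SE) for Sigirr. Those of Ano9 and Ptdss2 were 1.04 ± 0.68 (SE) and -0.65 ± 0.17 (SE). None of these 7 neighbours outside the family passed, and that of Ptdss2 came nearest (limma adjusted p = 0.0758). The neighbours were chosen by position after the Ifitm values were seen.

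Irf1 (1448436_a_at) is a transcription factor that interferon gamma induces through a GAS element. Its log2 signal was 10.81, 10.76 and 10.55 in D1, D2 and D3, and 11.11, 11.33 and 11.34 in U1, U2 and U3. All differentiated values were below all undifferentiated ones, by 0.31 at the nearest. The means were 10.71 ± 0.14 (SD, n = 3) and 11.26 ± 0.13 (SD, n = 3), and the difference was -0.56 ± 0.14 (SE), or 1.47-fold, with a 95% interval from -0.86 to -0.25. It missed the threshold (limma adjusted p = 0.0619), and it passed under none of the 15 alternatives tried.

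Irf3, the factor that virus sensors activate to induce interferon beta, was read by 4 probe sets that did not move alike. Probe set 1426111_x_at had log2 signals of 9.83, 10.31 and 10.03 in D1, D2 and D3, and 10.23, 10.25 and 10.14 in U1, U2 and U3, with overlapping groups and a difference of -0.15 ± 0.17 (SE). Its suffix marks probes that can match other transcripts. Probe set 1435271_at had 7.85, 5.00 (the floor) and 7.49 in D1, D2 and D3, and 8.42, 7.98 and 8.19 in U1, U2 and U3. D2 sat at the floor and the groups did not overlap, by a gap of 0.13, with a difference of -1.42 ± 0.66 (SE) that was -0.53 without D2. Probe set 1416898_a_at had 7.33, 6.88 and 8.61 in D1, D2 and D3, and 7.29, 6.52 and 6.15 in U1, U2 and U3. Here the differentiated group held the highest value, the groups overlapped, and the difference was 0.95 ± 0.56 (SE). The last, 1438721_a_at, was at the floor on 3 of 6 arrays, between 5.00 and 6.83, and was left out as dim.

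Among the effectors, Bst2 (1424921_at), also called tetherin, holds budding viruses at the cell surface. Its log2 signal was 8.86, 8.13 and 8.35 in D1, D2 and D3, and 9.14, 8.98 and 8.45 in U1, U2 and U3. D1 reached above U3, so the groups overlapped, and the difference was -0.41 ± 0.29 (SE), with a 95% interval from -1.05 to 0.24. Isg20 (1419569_a_at), an exonuclease that degrades RNA, had 5.00 (the floor), 6.10 and 6.57 in D1, D2 and D3, and 6.31, 7.67 and 7.53 in U1, U2 and U3. D3 lay above U1, so the groups overlapped, and the difference was -1.28 ± 0.66 (SE), with an interval from -2.73 to 0.16. Isg20 was dim, and the floor understates the distance of D1 from the rest.

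The receptor chain Ifnar1 was read on both array types. On array A (1449026_at) it had log2 signals of 8.96, 8.19 and 8.86 in D1, D2 and D3, and 9.02, 9.24 and 9.17 in U1, U2 and U3. The groups did not overlap, but D1 lay only 0.05 below U1, and the difference was -0.47 ± 0.26 (SE). On array B (1442222_at) it had 9.21, 8.94 and 7.33 in D1, D2 and D3, and 8.64, 8.54 and 8.57 in U1, U2 and U3. There D1 and D2 were above and D3 below the undifferentiated values, with a difference of -0.09 ± 0.58 (SE). The 2 Ifnar1 probe sets thus placed the same differentiated RNAs in different order.

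Ifngr1 (1448167_at), the ligand-binding chain of the interferon gamma receptor, had 8.13, 7.58 and 7.80 in D1, D2 and D3, and 7.45, 7.71 and 9.02 in U1, U2 and U3. U3 stood above all other values and the remaining values were mixed. The difference was -0.22 ± 0.43 (SE), with a 95% interval from -1.18 to 0.73, but it was 0.26 without U3.

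The array lots and fluidics stations recorded with the scans differed between groups. On array A the differentiated RNAs and U1 were run on 1 lot and U2 and U3 on another, and each group had its own station, so that station and group cannot be told apart. Set against U1, the undifferentiated array of their lot, D1, D2 and D3 differed in Ifitm3 by -1.57, -1.59 and -1.42. Ifitm1 differed by -1.91, -0.55 and -0.58, and Irf1 by -0.31, -0.35 and -0.56. A fit with the lot as a block likewise sets the differentiated arrays against U1 alone, so its undifferentiated arm is 1 array. It gave -1.53 for Ifitm3 (limma adjusted p = 0.00761), with U1 taken to vary like the other arrays. On array B the differentiated RNAs and U1 shared a station. On it, Ifnar1 differed from U1 by 0.57, 0.30 and -1.32.

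**Figure D3:**
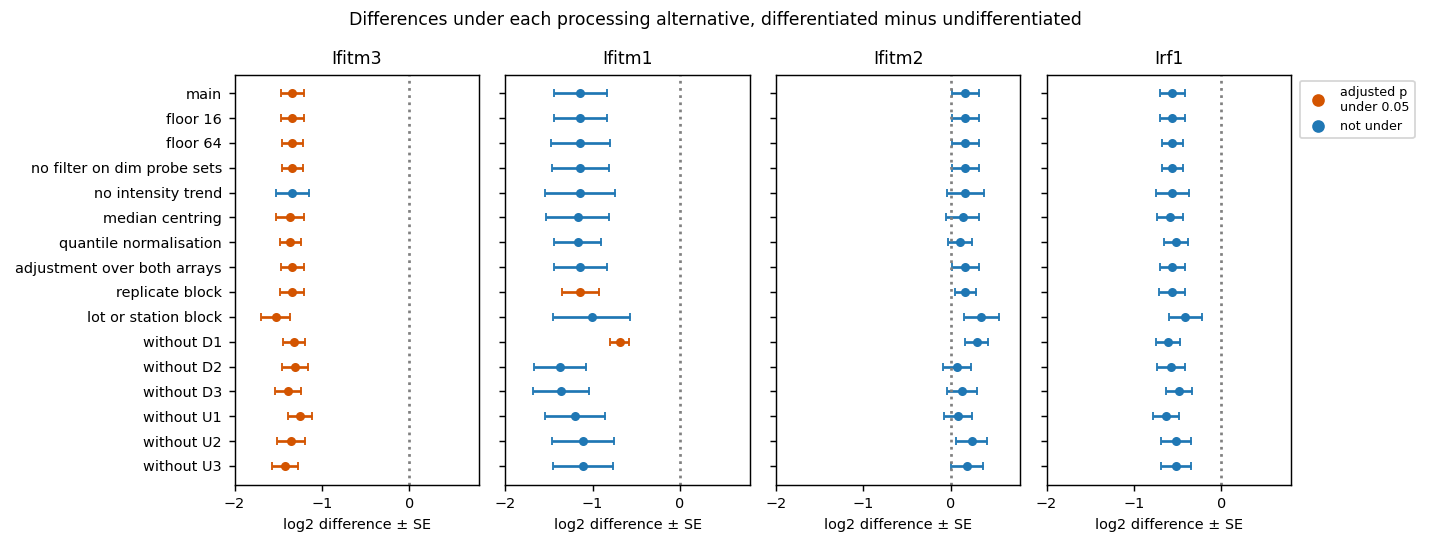
The log2 difference (differentiated minus undifferentiated, x axis, with its SE as bars) of Ifitm3, Ifitm1, Ifitm2 and Irf1 is shown under the setting used in the text (main) and each of 15 alternatives (rows), orange where the adjusted p was under 0.05. Ifitm3 stays between -1.53 and -1.25, whereas Ifitm1 moves from -1.37 to -0.69 and passes only with the replicate block and without D1.

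Beyond the members, 7 lists of interferon genes held 138 genes, of which 102 were tested with 1 probe set each. None rose and 3 fell by limma: Ifitm3, Socs3 and Gbp2. Over all 16461 genes 2.08% passed in either direction. At an unadjusted p under 0.05, 3 of the 102 were higher and 12 lower, where 5.95% of all genes were higher and 6.67% lower. Of those 12, 3 are members, chosen from this difference, and the 93 genes that are not members held 9 lower and 3 higher. Of the 93 tested genes that are not members, 2 fell, 44 differences were above 0 and 49 below, and the median was -0.03, against 0.01 over all genes. The lists were chosen with earlier results of these data known.

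Of the 19 ligand genes 6 were tested, and none passed (0 higher and 1 lower at an unadjusted p under 0.05). The others had no single-symbol probe set that passed the filter, either because none exists or because it was dim. The signal of Ifnb1, interferon beta, was 9.06, 8.20 and 7.42 in D1, D2 and D3, and 7.72, 7.60 and 7.57 in U1, U2 and U3, with D3 the lowest and the groups overlapping (0.60 ± 0.42, SE). Ifnz, a type I interferon gene of the mouse, differed by 0.55 ± 0.89 (SE). Of 12 receptor and JAK-STAT genes, 11 were tested and none passed (0 also at an unadjusted p under 0.05). Differences were above 0 in 8 and below in 3, with a median of 0.32. The members Ifnar1 and Ifngr1, chosen from this difference, are among the 3 below. The kinase Tyk2 differed by 0.11 ± 0.20 (SE), and Ifnlr1, a receptor chain for type III interferon, by 0.50 ± 0.55 (SE).

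Of 9 interferon regulatory factors 8 were tested and none passed (1 lower, Irf1, at an unadjusted p under 0.05). Differences were above 0 in 3 and below in 5, with a median of -0.12. The members Irf1 and Irf3, chosen from this difference, are among the 5 below. Among 17 sensors and adaptors, which detect viral RNA or DNA, 13 were tested and none passed (0 also at an unadjusted p under 0.05), with 5 above 0, 8 below and a median of -0.14. Rigi, a sensor of viral RNA, differed by -0.62 ± 0.29 (SE) on array B, and Trim25, a ubiquitin ligase that acts with it, by -0.36 ± 0.19 (SE).

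Of 15 negative regulators 14 were tested, 1 fell and none rose (1 lower and 2 higher at an unadjusted p under 0.05), with 11 above 0, 3 below and a median of 0.16. Those 2 were Socs1, an inhibitor of JAK kinases, with a difference of 1.39 ± 0.54 (SE, limma adjusted p = 0.233), and the phosphatase Ptpn11, with 0.68 ± 0.18 (SE, limma adjusted p = 0.0830), named here after their values were seen. The one that fell was Socs3, which inhibits JAK kinases downstream of cytokine receptors such as that of LIF. Socs3 (1416576_at) had log2 signals of 9.53, 8.44 and 8.27 in D1, D2 and D3, and 10.18, 9.84 and 10.38 in U1, U2 and U3. D1 was the highest differentiated value and still lay below all undifferentiated ones. Socs3 fell by 1.38 ± 0.31 (SE) on the log2 scale (limma adjusted p = 0.0418). The 2 further Socs3 probe sets, 1455899_x_at and 1456212_x_at, also passed. They differed by -1.30 ± 0.27 (SE, limma adjusted p = 0.0280) and -2.24 ± 0.31 (SE, limma adjusted p = 0.00399). Their suffix marks probes that can match other transcripts.

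Among 63 interferon-stimulated effectors 47 were tested, 2 fell and none rose. At an unadjusted p under 0.05 (limma), 9 were lower and 1 higher, where 6.67% of all genes were lower and 5.95% higher. Differences were above 0 in 14 and below in 33, with a median of -0.24 against 0.01 over all genes. The list includes the members Ifitm1, Ifitm2, Ifitm3, Bst2 and Isg20, chosen from this difference. Ifitm1 and Ifitm3 are among the 9 lower, and all of these members but Ifitm2 are among the 33 below. The 2 that fell were Ifitm3 and Gbp2, a guanylate-binding protein that acts against intracellular pathogens. Gbp2 (1418240_at) had 6.67, 7.27 and 6.67 in D1, D2 and D3, and 9.05, 8.37 and 8.54 in U1, U2 and U3. The groups lay well apart, and Gbp2 fell by 1.78 ± 0.37 (SE) on the log2 scale (limma adjusted p = 0.0290). A second Gbp2 probe set differed by -1.43 ± 0.52 (SE) and did not pass (adjusted p = 0.203). Neither Socs3 nor Gbp2 passed without D3, U1, U2 or U3. Socs3 also missed the threshold without D2 and with quantile normalisation. Neither gene passed at a floor of 64, with no filter on dim signals, with adjustment over both arrays together or without the intensity trend.

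**Figure D4:**
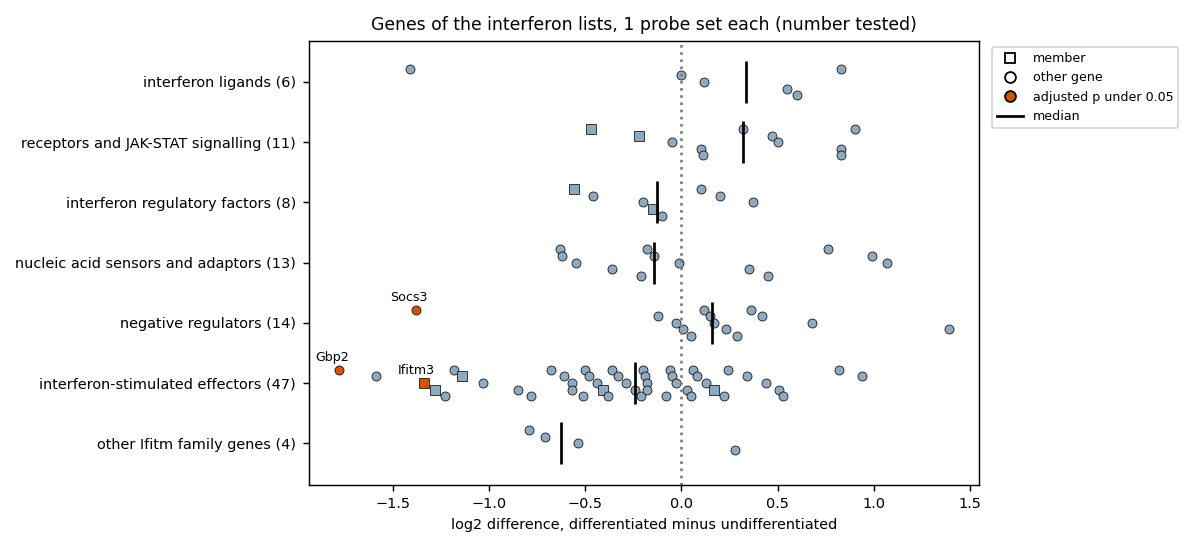
Each point is 1 tested gene of the 7 interferon lists, placed by its log2 difference (differentiated minus undifferentiated, x axis). Squares are members, orange marks an adjusted p under 0.05, and a bar marks each list's median. Ifitm3, Socs3 and Gbp2 are the 3 that passed, and the other genes lie on both sides of 0.

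The array A genes whose 6 signals ran most like those of Ifitm3 were Lbr, Akr1b8, Abcg2, Tagln and Hus1, with Pearson r from 0.993 to 0.996 over the 6 arrays. Lbr, Abcg2 and Tagln passed the threshold as lower. Akr1b8 differed by -0.64 (limma adjusted p = 0.144) and Hus1 by -0.84 (limma adjusted p = 0.165), and neither passed. Lbr, a nuclear envelope receptor for lamins, had 11.01, 11.06 and 11.17 in D1, D2 and D3, and 11.98, 11.83 and 11.71 in U1, U2 and U3. Tagln, an actin-binding protein of smooth muscle and fibroblasts, lay between 8.57 and 9.01 in the differentiated RNAs and was 11.75, 11.44 and 11.16 in U1, U2 and U3. Both had, like Ifitm3, their highest undifferentiated value in U1 and their lowest in U3, a likeness that comes with their choice by r. An absolute r above 0.99 was reached by 24 of the other 18024 tested probe sets of array A, and one above 0.9 by 951. Among the members' array A probe sets the r with Ifitm3 was 0.86 for Irf1, 0.78 for Ifitm1, 0.68 for Ifnar1, 0.66 for Isg20, 0.63 for Bst2 and 0.09 for Ifngr1. It was 0.65, 0.45 and -0.48 for the 3 Irf3 probe sets tested and -0.50 for Ifitm2. Since Ifitm3 differed between the groups, an r with it follows in part the other probe set's own group difference. The members were chosen from that difference, so nothing is read from their r values.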

How the data were processed

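Of 6 RNAs, each was hybridised to both array types, giving 12 arrays. The deposited values are linear signal intensities made by the authors with MAS5, per the submitters' processing notes. MAS5 is Affymetrix's method of turning the probe pairs into 1 signal per probe set. Its version, its target and a genome build are not given in the sources read. The trimmed mean of each deposited array lay between 1500.1 and 1500.5, so the authors had scaled all arrays alike, which hides a change in total RNA per cell. Other fields per the file headers (array lot, fluidics station) were deposited with the arrays and recoded as batches. Signals carry no counts, so precision is limited by the number of arrays.

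Each array was scaled to a 2% trimmed mean of 500, floored at 32 and put on log2. Probe sets with a mean log2 under 6 were left out (4601 on array A, 2167 on array B), as were 64 control probe sets per array. Groups were compared within each array type with limma 3.58.1 under R 4.3.3 (lmFit, then eBayes with trend), two-sided, with Benjamini-Hochberg adjustment. The fit was tested on simulated data. An exact permutation test of 3 against 3 cannot give a two-sided p under 0.1 and was not used. A gene was read by 1 single-symbol probe set among those that passed the filter, from array A where one passed there and the brightest if several.

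The members and lists were chosen with earlier results of these data known. Named were all members, from each list up to 4 called genes per direction with the largest difference or, where none was called, the 2 brightest, and the 5 array A genes most correlated with Ifitm3. The other Ifitm genes, neighbours and marker genes outside this rule were added after values were seen. Alternatives changed the floor, filter, trend, scaling, adjustment, blocks, probe set and RNAs included.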

Additional observations from a re-analysis of the deposited data

How the results depend on the processing

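With 3 RNAs a group, dim probe sets such as those of Isg20 and Irf3 carry wide intervals, and no detection call was used. Over 15 alternatives the Ifitm3 difference ran from -1.53 to -1.25 and passed in 14 (limma adjusted p from 0.000666 to 0.0541), the exception being the fit without an intensity trend. Ifitm1 ran from -1.37 to -0.69 and passed in 2. Irf1 was below 0 in all 15 and passed in 0. The block on lot or station leaves U1 as the only undifferentiated array, assumed to vary like the others. With it Isg20 differed by -0.42, Bst2 by -0.69 and Irf3 1416898_a_at by 0.31. Ifngr1 ran from -0.53 to 0.39 and Ifnar1 on array B from -0.45 to 0.49. Where a value moved, the cause was not tested.

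The 518 calls on array A became 97 without the trend, 307 with median centring, 319 when adjusted over both arrays together and 106 with the lot as a block, and 190 to 497 when 1 RNA was left out (313 without D3, 214 without U2, 190 without U3). The 4 calls on array B became 2 at a floor of 16, at a floor of 64, with no filter and with median centring, 0 without the trend (limma), 10 with joint adjustment, 0 with the station as a block and 0 to 2 when 1 RNA was left out. The 1 member probe set called on array A became 0 without the trend and 1 to 2 with an RNA left out. The 3 interferon genes called became 1 at a floor of 64, with no filter, with joint adjustment and with the lot block, 0 without the trend, and 1 to 4 with an RNA left out.

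Replicate numbers are shared between groups, but the correlations of same-numbered deviations were 0.16, 0.01 and 0.07 on array A, where not every RNA correlated best with its own number. On array B they were 0.18, 0.10 and 0.12, and each RNA correlated best with its own number, a hint of pairing from the data and not from the labels. The highest, 0.18, was that of D1 and U1, which also had the highest actin ratios on array B (0.68 and 0.55). The part of RNA quality in these correlations was not tested. Since array A did not show such a best match for every pair, the numbers were not taken as pairs. With the replicate block, array A gave 724 calls, array B 1, the members 2 (Ifitm1 added, adjusted p = 0.0128 by limma) and the interferon genes 5 (Pml and Ifitm1 added).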
